A study of Harpegnathos saltator with 27 samples.

Results

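Of the 5644 genes with a mean level of at least 10 CPM (a gene's count scaled to a library total of 1e+06) in the fat body of Harpegnathos saltator workers, 100 genes, or 1.77%, were taken for how much they differed between ants given the same injection. For each gene the standard deviation (SD) of log2(CPM + 1) was computed among the 3 libraries of each treatment. Genes were then ranked by the smallest of these 3 SDs, so that a high rank required a wide spread in every treatment, and the first 100 were kept. The count table held 20659 gene identifiers in all. These SDs chose the genes, so in fat body they are given as a description and with no test. Brain and ovary values did not enter the ranking. Hormone tests in fat body, which the same spread enters, are given as values from which nothing is read.

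Harpegnathos saltator is an ant whose workers can become reproductive as adults. All ants were workers injected into the abdomen. The treatments were 500 ng of methoprene, an analog of juvenile hormone (JHA), 500 ng of 20-hydroxyecdysone (20E), the active ecdysteroid of insects, each diluted in Hank's balanced salt solution, or about 1 µL of 10% ethanol in the same solution as the solvent control (EtOH). Abdominal fat body, ovary and non-visual brain were collected 12 h later from 3 individuals per treatment, which gave 27 libraries of polyadenylated RNA in 9 groups of 3. The labels give no age, and they do not say whether libraries of different tissues with the same replicate number came from the same ant.

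The insect fat body stores nutrients and is the main site of intermediary metabolism, and it secretes yolk precursors, storage proteins and immune peptides into the blood. Juvenile hormone and ecdysteroids both act on it. What it expresses is known to follow feeding, reproductive state and infection in many insects. None of the identifiers could be paired with a gene name, since 0 of 20659 were found among 14329 annotated genes of the species, so no function is stated for any gene and cell type markers could not be read.

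Fat body libraries held 13.1 to 21.6 M (mega) gene counts, brain libraries 8.74 to 13.4 M and ovary libraries 9.74 to 17.4 M. The shallowest fat body library gave 131 counts at 10 CPM, where counting error alone gives an SD of 0.126 on the log2 scale. Tissue identity could only be read from genes at least 8-fold higher in 1 tissue than in both others. Such genes of ovary took 4.28% of counts in ovary library JHA 1 and 5.03% in ovary library 20E 3, against 6.97 to 8.12% in the other 7, and those of fat body took 1.51 and 1.67% there, against 0.717 to 1.01%. Brain libraries EtOH 3 and JHA 1 also stood apart, with 49.98 and 48.5% of reads that met no annotated feature. In the other 7 brain libraries it was 52.2 to 54.2%. Median correlations across tissues and several hormone calls are given with and without both libraries of a tissue. The median spread is given without 1 library at a time, and the other spread results with all libraries only.

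As a group the 100 genes had mean levels like those of other genes. Their mean level in fat body ran from 10.3 to 48258 CPM with a median of 35.7 CPM, close to the 32.6 CPM median of all 5644 genes. In 21 members the median over the 9 libraries was under 10 CPM, against 2.99% of all 5644 genes, and in 2 it was under 1 CPM, so some means rested on a few libraries. Within a treatment their median SD was 1.22 with EtOH, 1.17 with JHA and 1.26 with 20E on the log2(CPM + 1) scale, where the medians of all 5644 genes were 0.276, 0.228 and 0.224. The smallest of a gene's 3 SDs ran from 0.717 to 3.29, with a median of 0.905 against 0.139 for all genes. In 35 of the 100 genes the SD passed 1 in all 3 treatments. The limit fell in a continuum, since ranks 99 and 100 (HSALG024611.1 and HSALG020453.1) had smallest SDs of 0.718 and 0.717, and the next 2 genes, HSALG006160.1 and HSALG001047.2, had 0.717 and 0.717.

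At the top of the ranking, genes went from near absence to high levels among ants of the same treatment. HSALG013066.1, rank 1, was at 0.0634, 27.8 and 83.8 CPM in the 3 EtOH libraries, at 186, 0.0464 and 244 CPM with JHA and at 60.0, 0.129 and 0.0616 CPM with 20E. The 4 low libraries held only 1, 1, 2 and 1 counts of this gene and the other 5 held 394 to 3859 counts. It was at no more than 0.404 CPM in any brain library and 1.54 CPM in any ovary library. HSALG020834.1, rank 2, was at 0.951, 151 and 2.60 CPM with EtOH, at 93.0, 0.557 and 0.631 CPM with JHA and at 47.7, 0.129 and 0.800 CPM with 20E. In each treatment 1 library, EtOH 2, JHA 1 or 20E 1, was far above the other 2. In brain, by contrast, HSALG020834.1 was at 194 to 473 CPM in every library. Genes at least 8-fold higher in brain took 0.174, 0.246 and 0.182% of counts in the 3 fat body libraries where this gene was high, inside the 0.133 to 0.252% of the other 6. In such tissue samples, a change in the number of cells of a type and a change in the RNA of each cell cannot be told apart.

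Ranks 3 and 4 shared a pattern. HSALG003788.2 was at 4.44, 65.9 and 10.1 CPM with EtOH, at 52.1, 0.928 and 117 CPM with JHA and at 51.0, 1.94 and 70.6 CPM with 20E. HSALG008567.2 was at 45.2, 393 and 55.7 CPM with EtOH, at 343, 9.98 and 1039 CPM with JHA and at 355, 13.6 and 712 CPM with 20E. Both were lowest in libraries EtOH 1, JHA 2 and 20E 2.

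**Figure D1:**
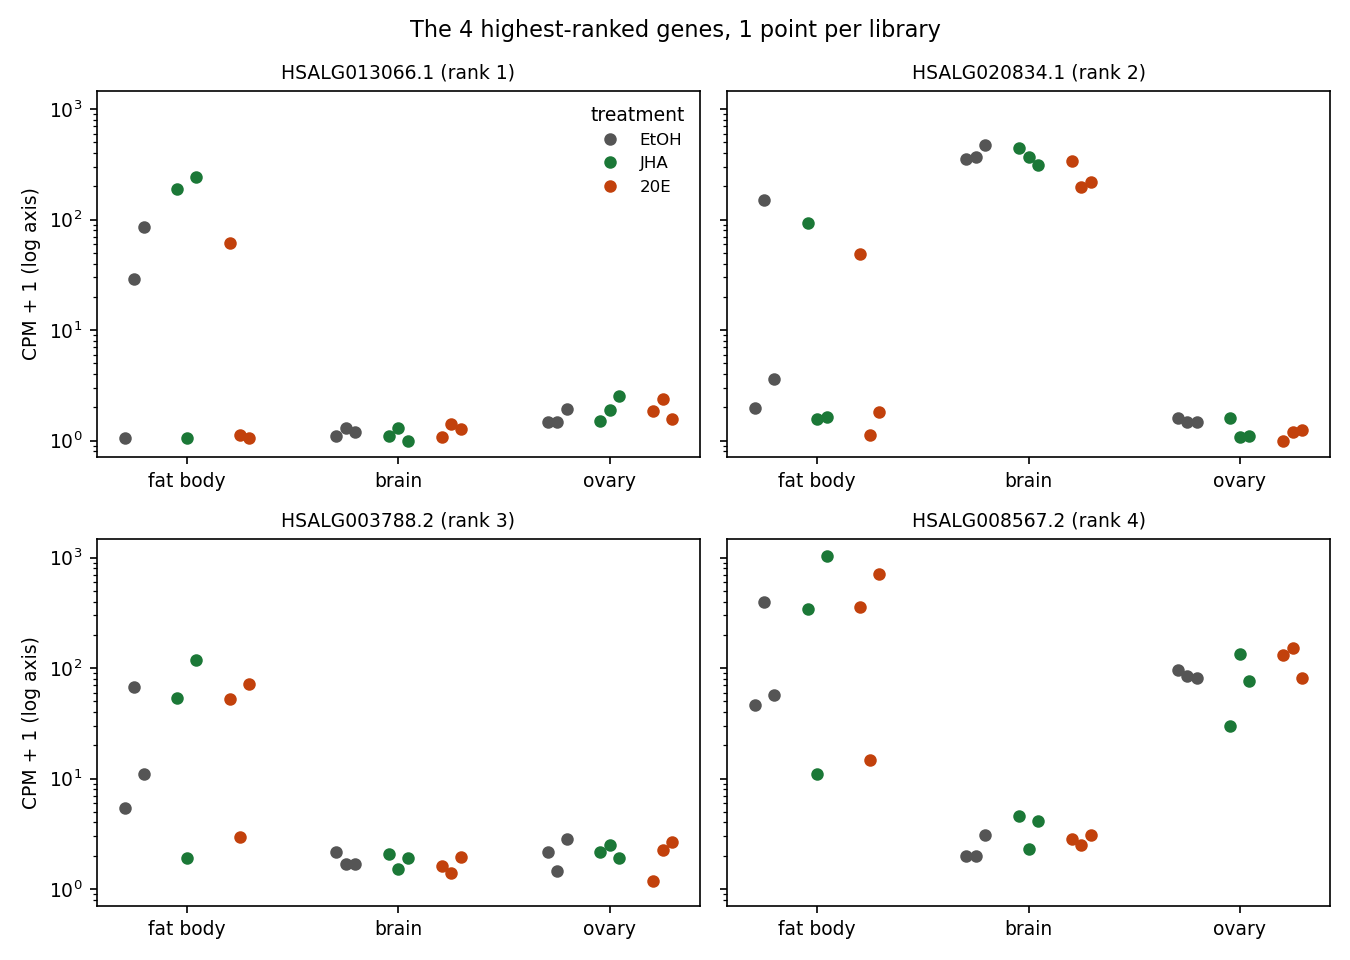
Levels of the 4 highest-ranked genes as CPM + 1 on a log axis, with 1 point per library, grouped by tissue and coloured by treatment. In fat body the 3 points of a treatment are far apart, while in brain and ovary the points of most groups lie close together or near the bottom of the axis.

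Highly transcribed genes were among the 100 as well, with 5 of them above a mean of 1000 CPM. HSALG009096.2, which had the highest mean, took 53394, 23246 and 69918 CPM with EtOH, 16204, 58245 and 58371 CPM with JHA and 59193, 69886 and 25868 CPM with 20E. Its lowest libraries were EtOH 2, JHA 1 and 20E 3. HSALG005415.2, with the second highest mean, was at 8859, 2472 and 18789 CPM with EtOH, at 19890, 6184 and 4608 CPM with JHA and at 2509, 2519 and 14649 CPM with 20E. It was high in JHA 1 and 20E 3, where HSALG009096.2 was low. Together the 100 genes took 3.87 to 10.3% of all gene counts in a fat body library.

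By mean level, more of the variable genes than of all genes were highest in fat body. The fat body means come from the libraries used for the ranking, and a few high libraries can raise them. The shares in this paragraph are therefore a description. Of the 100, 64% had their highest mean level in fat body, against 16.4% of all 5644 genes, and 25% were at least 8-fold above both other tissues, against 3.86%. The most restricted were HSALG005761.2, at 25.1 to 237 CPM in fat body and at most 0.719 CPM elsewhere, and HSALG005766.2, at 25.7 to 197 CPM in fat body and at most 0.308 CPM elsewhere. Conversely, 5% were at least 8-fold higher in brain, against 0.726%, and 2% in ovary, against 0.656%. HSALG006978.2 was at 1039 to 3932 CPM in brain and 1.68 to 43.5 CPM in fat body. HSALG007091.2 was at 930 to 2507 CPM in brain and 2.05 to 70.7 CPM in fat body. Only 38% of the 100 reached a mean of 10 CPM in both brain and ovary, against 91.6% of all genes, so broadly used genes were rarer among them.

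The members rose and fell together in a few groups. Each library was described by its deviation, the log2(CPM + 1) of a gene minus the mean of its treatment, so that differences between treatments were removed. Over the 9 fat body libraries, 14.1% of pairs of members had a Pearson correlation of deviations above 0.7, against 7.68% of pairs of all 5644 genes, and 3.60% had one below -0.7, against 2.93%. Clustering on these correlations, with average linkage cut at 0.5, placed 85 members in 7 blocks of at least 5 genes, with 27, 19, 9, 9, 8, 7 and 6 members, and left 15 outside. The first 2 axes of a principal component analysis held 65.5% of the members' deviations, against 49.3% for all genes, where 6 axes are possible once group means are removed. The correlations rest on 9 libraries that share depth, scaling and the composition of each tissue sample, and the blocks were drawn from the data, so they carry no test.

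**Figure D2:**
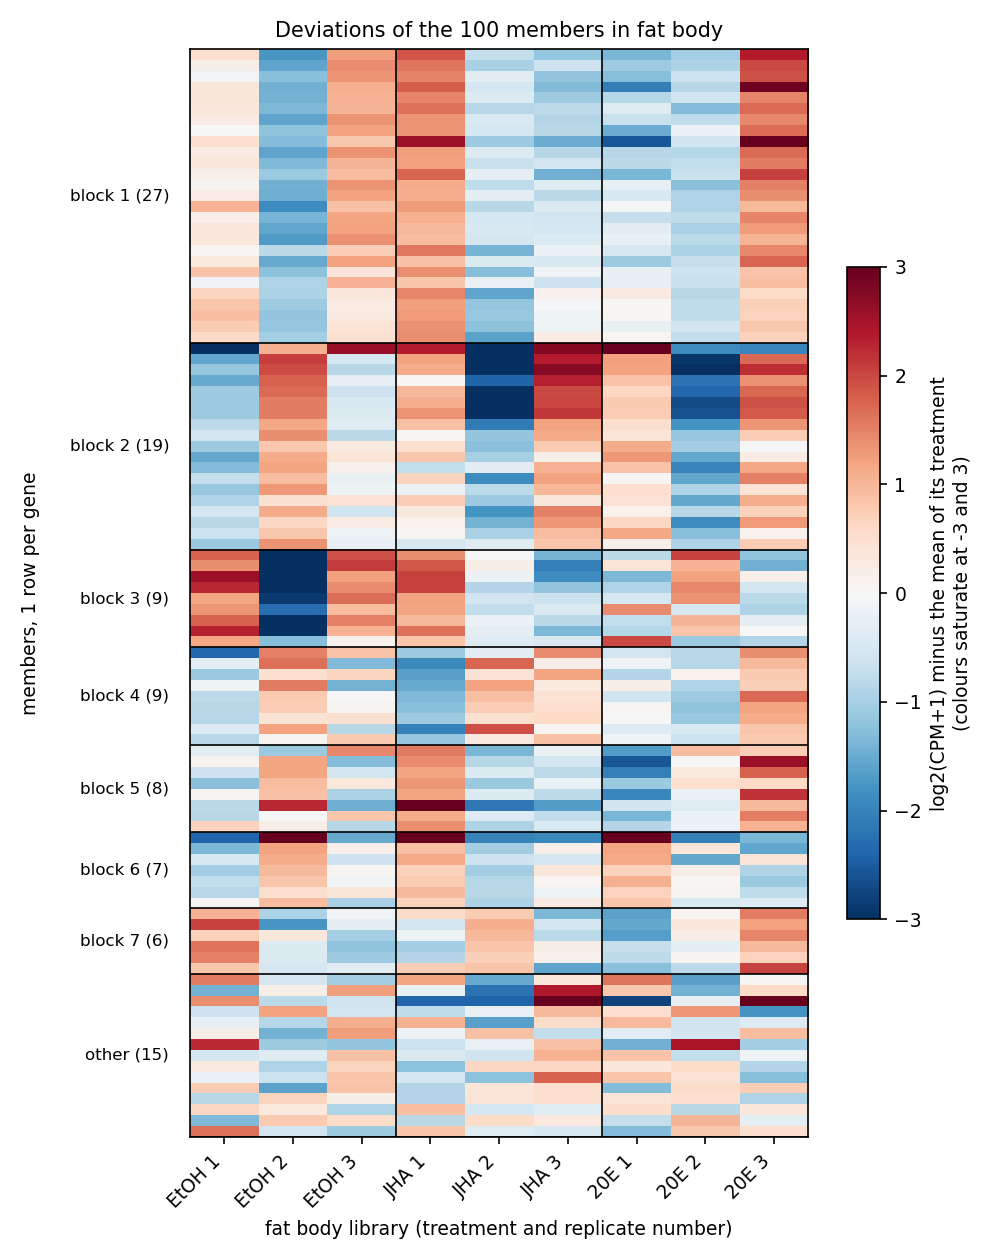
Deviation of each member from the mean of its treatment in the 9 fat body libraries, with 1 row per gene, ordered by block, and red above and blue below the mean on the log2(CPM + 1) scale. Block 1 is red in JHA 1 and 20E 3 and blue in EtOH 2, block 2 is blue in EtOH 1, JHA 2 and 20E 2, and block 3 is darkest in EtOH 2.

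Block 1 was the most uniform group of genes. All 27 of its members were highest in library JHA 1 and in library 20E 3, and all 27 were lowest in EtOH 2, while the highest EtOH library was EtOH 3 for 20 members and EtOH 1 for 7. The mean correlation between its members was 0.873. Its median deviation was 0.32, -1.34 and 1.05 in the EtOH libraries, 1.35, -0.68 and -0.56 with JHA and -0.48, -0.76 and 1.45 with 20E. The order of libraries was therefore shared by every member at the top of the JHA and 20E groups and at the bottom of the EtOH group. The 2 most typical members were HSALG006210.1 and HSALG000253.2. HSALG006210.1 was at 22.1, 6.43 and 36.4 CPM with EtOH, at 34.7, 8.44 and 9.22 CPM with JHA and at 7.54, 8.01 and 42.5 CPM with 20E. HSALG000253.2 was at 93.2, 26.8 and 220 CPM with EtOH, at 284, 47.0 and 59.8 CPM with JHA and at 25.8, 28.2 and 221 CPM with 20E. A higher cut of 0.7 in the same clustering could not separate genes joined at 0.5. All 27 members again fell in the same block with TMM library sizes, with rank correlations, at a lower cut of 0.3 and without any single library. The largest block then held 27 to 46 members under the other settings and 29 to 40 without a library, so other genes could join them.

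The composition of the same libraries differed too. EtOH 3, JHA 1 and 20E 3 had the largest TMM factors of their treatments, 1.06, 1.12 and 1.09, where the other 6 fat body libraries had 0.907 to 1.04. Genes at least 8-fold higher in fat body took the smallest shares of counts in JHA 1 and 20E 3, 34.6 and 37.1%, against 39.6 to 47.9% in the other 7. Of these 218 genes 25 were members, so this share is not separate from the ranking. Among them HSALG009096.2 was at 16204 CPM in JHA 1, against 58245 and 58371 CPM in JHA 2 and JHA 3. In 20E 3 it was at 25868 CPM, against 59193 and 69886 CPM in 20E 1 and 20E 2. Genes at least 8-fold higher in ovary took their largest shares in JHA 1 and 20E 3, 0.192 and 0.201%, against 0.134 to 0.183%. The part of library composition in the block 1 pattern was not tested.

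Block 2 followed other libraries. It held 19 members, among them ranks 3 and 4, with a mean correlation of 0.843. Its median deviation was -1.08, 1.18 and -0.24 with EtOH, 0.67, -1.80 and 1.22 with JHA and 0.77, -1.80 and 1.15 with 20E. The lowest library of a treatment was EtOH 1 for 17 of the 19 members, JHA 2 for 17 and 20E 2 for 18. After HSALG003788.2, the most typical member was HSALG006207.2, which was at 1.97, 27.8 and 6.19 CPM with EtOH, at 9.06, 0.835 and 47.3 CPM with JHA and at 18.7, 1.36 and 27.3 CPM with 20E. Its level in brain was higher throughout, at 169 to 408 CPM. In EtOH 1, JHA 2 and 20E 2 the 10 most abundant genes took 28.7, 30.8 and 33.0% of counts, against 25.1 to 28.7% in the other 6 libraries, and their part in the result was not tested.

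Blocks 3 and 4 moved in opposite directions, with a mean correlation of -0.62 between their members. The 9 members of block 3 were all lowest in EtOH 2, with a median deviation of -3.37 there against 1.76 and 1.41 in EtOH 1 and 3, and all were highest in JHA 1. HSALG000431.2 was at 99.7, 0.636 and 54.6 CPM with EtOH, at 9.13, 0.325 and 0.0631 CPM with JHA and at 1.26, 10.5 and 1.91 CPM with 20E. HSALG004803.1 was at 60.9, 0.848 and 50.9 CPM with EtOH, at 5.15, 1.76 and 0.757 CPM with JHA and at 1.50, 7.43 and 2.46 CPM with 20E. Both were thus high in a pair of EtOH libraries and low in the third. Without EtOH 2 the mean correlation within block 3 fell from 0.797 to 0.560.

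The 9 members of block 4 were all lowest in JHA 1 and highest in 20E 3. HSALG005592.2 was at 36.0, 108 and 67.8 CPM with EtOH, at 11.5, 48.7 and 41.7 CPM with JHA and at 81.9, 33.8 and 181 CPM with 20E. HSALG011538.1 was at 9.64, 30.7 and 17.1 CPM with EtOH, at 3.91, 21.9 and 15.6 CPM with JHA and at 26.8, 18.5 and 134 CPM with 20E. Block 4 also held both pairs of members with consecutive identifier numbers, named after their values were seen. HSALG003648.1 and HSALG003649.2 had a correlation of 0.98 over the 9 libraries, and HSALG006292.2 and HSALG006293.2 had 0.83. Whether these pairs are neighbours or copies was not analysed here, and reads of near-identical copies could have been split between them.

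Smaller blocks set other libraries apart. All 8 members of block 5 were highest in JHA 1 and all were lowest in 20E 1. All 7 members of block 6 were highest in EtOH 2, JHA 1 and 20E 1 and lowest in JHA 2. All 6 members of block 7 were highest in EtOH 1, JHA 2 and 20E 3 and lowest in 20E 1. Blocks 6 and 7 were opposed, with a mean correlation of -0.60 between their members. The mean correlation within blocks 4 and 5 fell from 0.731 to 0.583 and from 0.683 to 0.556 without JHA 1. Over all 100 genes, JHA 1 was the highest JHA library for 57% and 20E 3 the highest 20E library for 66%, against 50.3 and 44.6% of all 5644 genes.

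Outside fat body the members also had a wider median spread than other genes. In brain 54 members reached a mean of 10 CPM, and their median smallest SD was 0.216, against 0.0961 for the 8692 brain genes at that level. In ovary 49 members reached it, with a median of 0.223 against 0.0934 for 7910 genes. Among genes between 10 and 100 CPM, the medians were 0.216 for 38 members against 0.102 in brain and 0.241 for 27 members against 0.101 in ovary. Levels of members and of all genes within that range were not compared. In brain 26 of the 54, or 48.1%, lay above the 90th percentile of all genes, and in ovary 22 of the 49, or 44.9%. The lists of the 100 most variable genes, ranked in each tissue by the same rule, shared 12 genes between fat body and brain and 7 between fat body and ovary. A smallest SD of at least 0.717 was seen in 5 of the 54 in brain, or 9.26%, and in 6 of the 49 in ovary, or 12.2%, against 0.357% and 0.493% of all genes. Without EtOH 3 the brain median was 0.122 against 0.0653 for all genes, and without JHA 1 the ovary median was 0.151 against 0.0585.

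**Figure D3:**
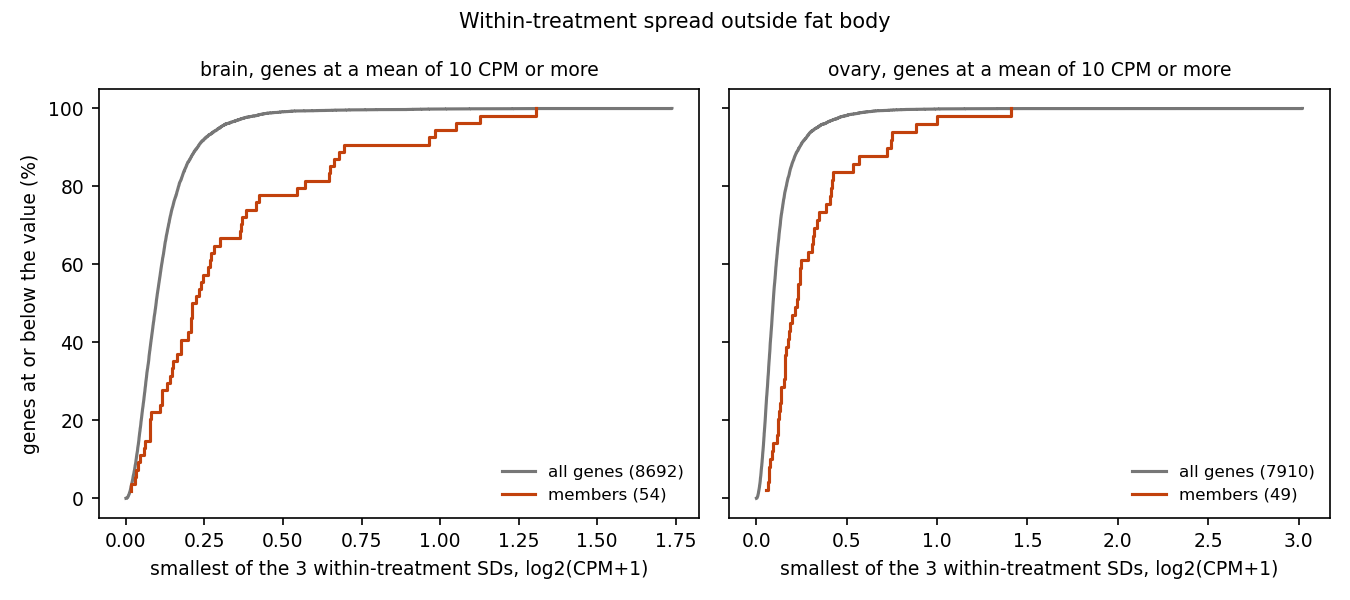
Cumulative share of genes, in percent, by the smallest of the 3 within-treatment SDs of log2(CPM + 1) in brain and in ovary, for members and for all genes with a mean of 10 CPM or more. The members' curve lies to the right of the curve of all genes in both tissues, with medians of 0.216 against 0.0961 in brain and 0.223 against 0.0934 in ovary.

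A few members were variable in every tissue. Of the 38 members at a mean of 10 CPM in all 3 tissues, 10 lay above the 90th percentile of spread in both brain and ovary. The share of all genes that did so was not computed. HSALG011103.2, a member of block 1, was at 64.2, 7.49 and 57.1 CPM in fat body with EtOH, at 73.9, 16.4 and 22.0 CPM with JHA and at 28.5, 14.9 and 58.2 CPM with 20E. In ovary it was at 127, 46.8 and 182 CPM with EtOH, at 204, 51.7 and 74.3 CPM with JHA and at 59.7, 73.7 and 360 CPM with 20E. In both tissues JHA 1 and 20E 3 were the highest libraries of their treatments and EtOH 2 the lowest. The widest ovary spread was that of HSALG002042.2, which was at 33.5, 1.99 and 14.7 CPM with EtOH, at 9.60, 19.9 and 2.05 CPM with JHA and at 0.980, 30.2 and 24.5 CPM with 20E.

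The widest brain spread was that of HSALG005415.2, the gene of second highest mean in fat body. In brain it was at 5047, 421 and 2937 CPM with EtOH, at 541, 92.6 and 155 CPM with JHA and at 23.5, 381 and 4824 CPM with 20E, and in ovary it stayed at 1.67 to 15.1 CPM. HSALG003463.2 had the next widest brain spread and went with it, with correlations of deviations of 0.99 in fat body and 0.99 in brain. In ovary the correlation was 0.83, but HSALG003463.2 was only at 0.173 to 5.03 CPM there. In brain HSALG003463.2 was at 926, 102.4 and 778 CPM with EtOH, at 196, 40.4 and 88.5 CPM with JHA and at 11.3, 85.8 and 725 CPM with 20E. For both genes EtOH 1, JHA 1 and 20E 3 were the highest brain libraries of their treatments. Genes at least 8-fold higher in fat body took 1.18, 1.38 and 0.825% of counts in these brain libraries and 0.593 to 1.23% in the other 6.

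Libraries with the same treatment and replicate number were then set side by side across tissues. Each fat body library was compared with the 3 libraries of its treatment in another tissue, over genes at a mean of 10 CPM in all 3 tissues. The deviations of 8 of 9 fat body libraries were closest to the brain library of their own number. For ovary this held for 7 of 9. The correlations of same-numbered libraries were low, with a median of 0.215 (-0.084 to 0.454) with brain and 0.153 (-0.035 to 0.322) with ovary. The labels do not state that these came from the same ants, so each correlation below describes 9 pairs of same-numbered libraries and carries no test. At a mean of 10 CPM in both tissues, the median correlation between fat body and brain was 0.251 for 54 members and 0.362 for 5312 genes. Without EtOH 3 and JHA 1 it was 0.378 for members and 0.135 for all genes, so which was higher depended on those numbers. At a mean of 1 CPM in brain it was 0.517 for 86 members and 0.366 for 5601 genes. Between fat body and ovary the medians were 0.334 for 49 members and 0.175 for 5324 genes, and 22.4 against 9.15% of genes passed 0.7. Without JHA 1 and 20E 3 the ovary medians were 0.274 for members and 0.152 for all genes. At a mean of 1 CPM in ovary they were 0.315 for 80 members and 0.177 for 5539 genes, and 0.132 and 0.150 without those numbers.

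Block 1 accounted for most of the close matches with brain. At a mean of at least 1 CPM in brain, 24 of 86 members, or 27.9%, had a correlation above 0.7, against 15.3% of 5601 genes, and 17 of these 24 were in block 1. The median deviation of block 1 in brain was 0.65, -0.71 and 0.27 with EtOH, 0.10, -0.35 and 0.05 with JHA and -1.05, -0.64 and 1.86 with 20E. In ovary it was 0.04, -0.22 and 0.24 with EtOH, 1.12, -0.47 and -0.20 with JHA and -0.26, -0.54 and 0.82 with 20E. As in fat body, EtOH 2 was lowest and 20E 3 highest of their treatments in both tissues, and JHA 1 was highest in ovary. In brain JHA 1 and JHA 3 hardly differed, at 0.10 and 0.05, with 17 and 16 of 27 members above the group mean. In fat body all 27 were above it in JHA 1 and 2 in JHA 3. The median correlation of block 1 with brain was 0.739 over 27 members, and 0.901 without EtOH 3 and JHA 1. With ovary it was 0.596 over 22 members, and 0.274 without JHA 1 and 20E 3.

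**Figure D4:**
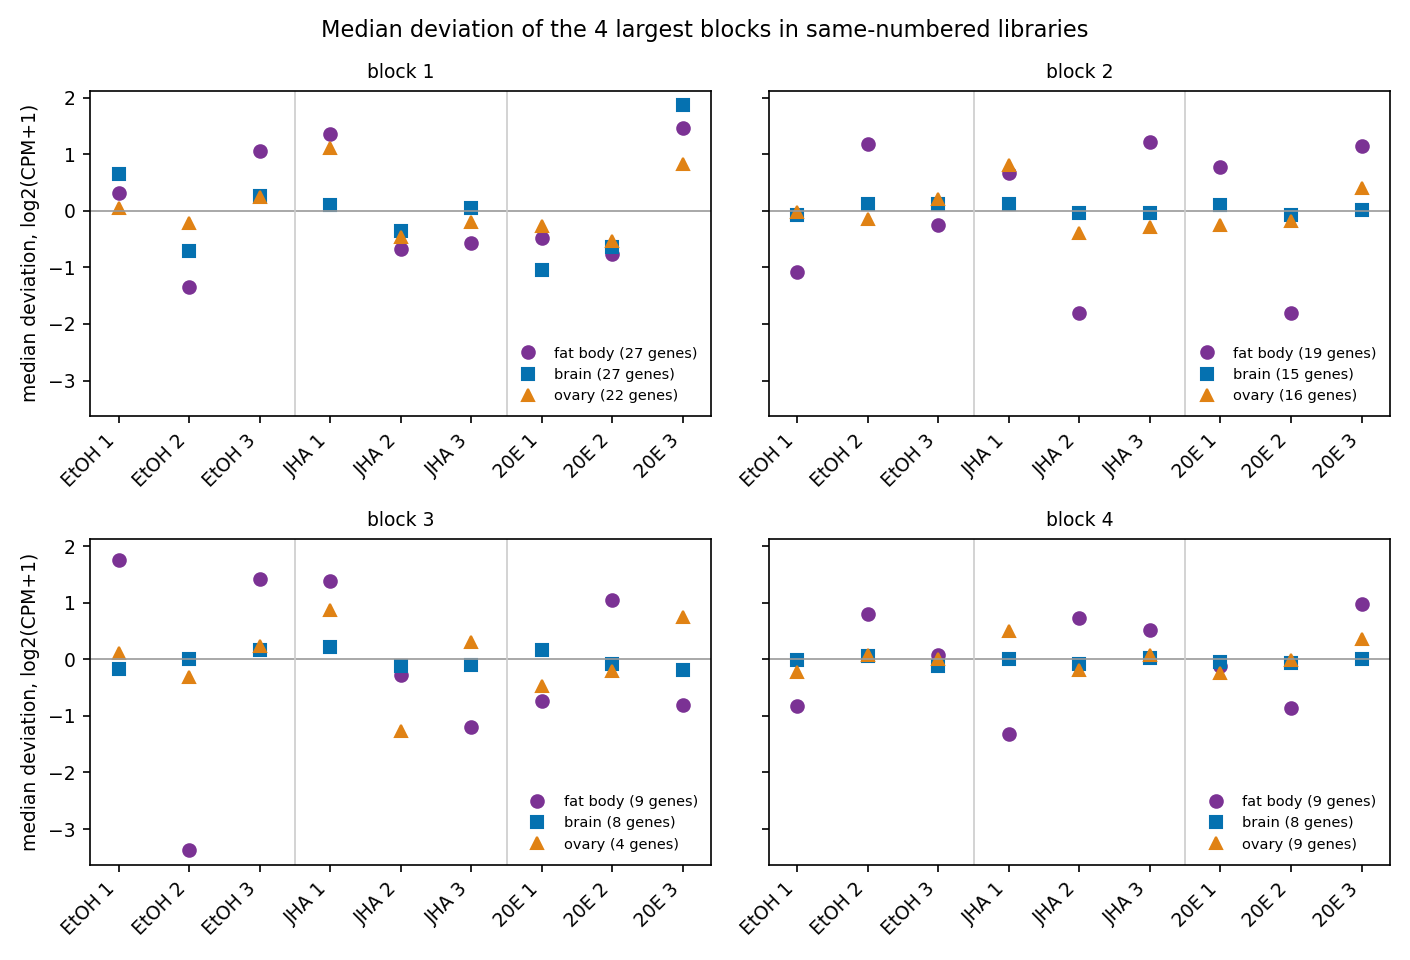
Median deviation of the 4 largest blocks on the log2(CPM + 1) scale, in each of the 9 treatment and number combinations, for fat body, brain and ovary, over members with a mean of at least 1 CPM in that tissue. In block 1 all 3 tissues lie low in EtOH 2 and high in 20E 3, while in block 2 the brain points stay near 0 where fat body falls to -1.80.

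Within block 1 the matches with brain and with ovary belonged largely to different genes. In 14 members the correlation passed 0.7 with brain while it did not with ovary or the gene was under 1 CPM there, in 6 with ovary and not with brain, in 3 with both and in 4 with neither. The 3 with both were HSALG006210.1, HSALG011103.2 and HSALG020751.1, named after their values were seen. HSALG011103.2 had correlations of 0.94 with brain and 0.86 with ovary. All 6 matched to ovary alone were at a higher mean level in ovary than in fat body, with correlations of 0.823 to 0.917 with ovary and -0.216 to 0.194 with brain. Without JHA 1 and 20E 3 these ovary correlations were 0.749 to 0.902. Without EtOH 3 and JHA 1 the brain correlations of the same 6 members rose to 0.114 to 0.556, still under 0.7. Among them HSALG020453.1, rank 100, was at 941, 760 and 1229 CPM in ovary with EtOH, at 1951, 276 and 634 CPM with JHA and at 331, 201 and 673 CPM with 20E, and in fat body at 447, 148 and 416, at 760, 93.9 and 341 and at 438, 251 and 678 CPM in the same order.

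**Figure D5:**
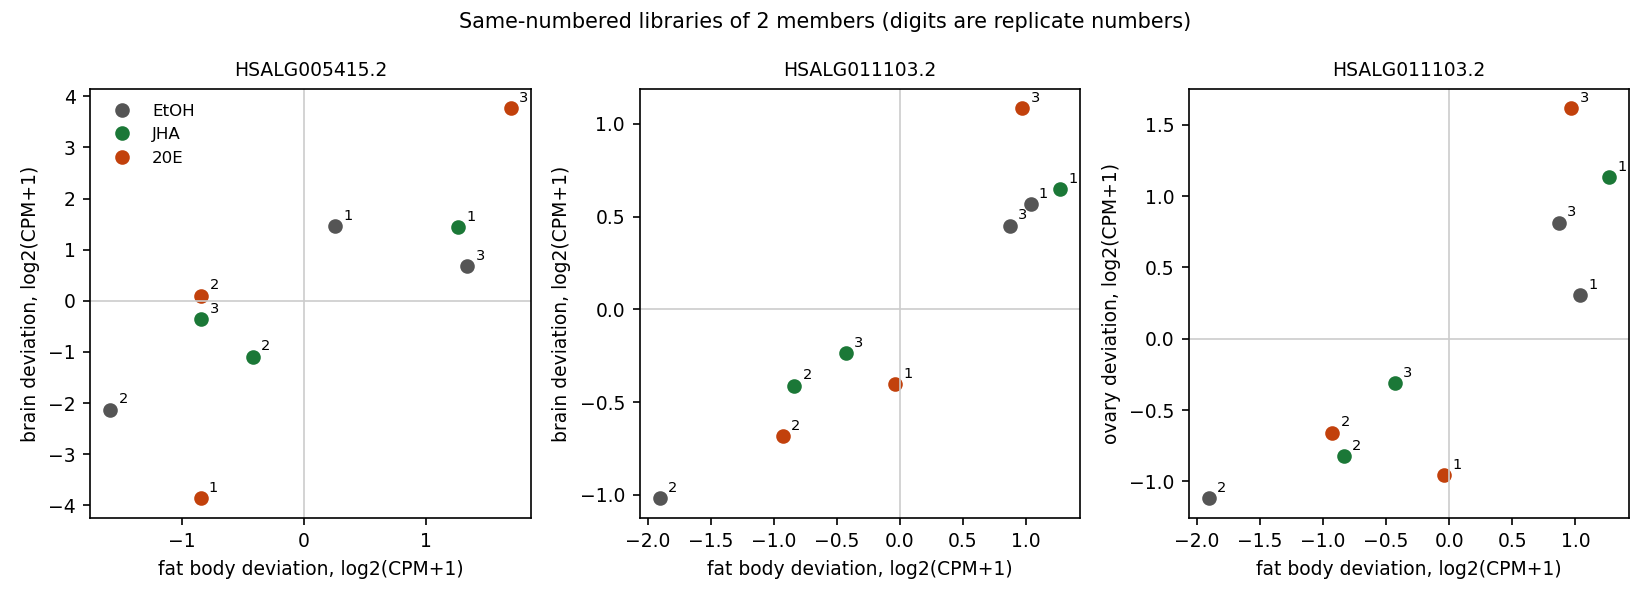
Deviation in fat body on the x axis against the deviation in brain or ovary on the y axis, both on the log2(CPM + 1) scale, for HSALG005415.2 in brain and HSALG011103.2 in brain and ovary, with 1 point per same-numbered pair of libraries. EtOH 2 lies at the lower left and 20E 3 at the upper right in all 3 panels.

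Block 2 showed little of its fat body pattern in brain. Over its 15 members at 1 CPM there, the median brain deviation stayed between -0.07 and 0.13 in the 9 libraries, and the median correlation with fat body was 0.194, or 0.321 without EtOH 3 and JHA 1. With ovary it was 0.192 over 16 members, and -0.121 without JHA 1 and 20E 3. In block 3 the median brain deviation of EtOH 2 was 0.01 over 8 members, where fat body had -3.37. The median correlations of blocks 3 and 4 with brain were 0.165 and 0.141, and -0.0628 and 0.247 without EtOH 3 and JHA 1.

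The hormone comparisons were then read for the members. In fat body, edgeR's quasi-likelihood test with a Benjamini-Hochberg adjusted p under 0.05 called 0 of the 100 for 20E against EtOH, where 1.01% of 9870 tested genes were called, 0 for JHA against EtOH, where 1.12% were called, and 0 for JHA against 20E, where 0.811% were called. At an unadjusted p under 0.05 it found 7, 11 and 8 members, against 14.2, 16.4 and 13.9% of all tested genes, and DESeq2 called 2, 7 and 4, or 2.06, 7.22 and 4.12%, against 4.52, 5.75 and 4.98% of all genes. The groups did not overlap for 2, 4 and 6 members, where they did not overlap for 18.1, 21.2 and 19.8% of all tested genes. The spread that chose the genes enters this test, so nothing is read from these counts. The median size of the members' log2 fold change was 0.55, 0.71 and 0.55 in the 3 comparisons, against 0.26, 0.28 and 0.25 for all tested genes. The comparisons of a tissue share libraries.

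The smallest edgeR adjusted p values among fat body members did not pass. HSALG012648.2 was at 3.80, 1.77 and 15.1 CPM with EtOH, at 31.9, 3.29 and 8.77 CPM with JHA and at 39.8, 246 and 218 CPM with 20E. Every 20E library was above every EtOH library, and the log2 fold change was 4.61 (SE 1.08, adjusted p = 0.0902). HSALG008148.1 was at 1604, 299 and 784 CPM with EtOH, at 13970, 6036 and 5741 CPM with JHA and at 4470, 526 and 621 CPM with 20E. Its JHA libraries did not overlap with the EtOH libraries, at a log2 fold change of 3.15 (SE 0.96, adjusted p = 0.156). For JHA against 20E the member with the smallest p was HSALG008769.1, at a log2 fold change of -2.32 (adjusted p = 0.135).

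In brain, 3 of the 91 members tested rose with 20E against EtOH, which is 3.30% where 1.87% of 12379 genes were called and 1.35% were called higher. HSALG012648.2 was at 9.51, 6.87 and 8.24 CPM with EtOH and at 29.8, 36.0 and 38.4 CPM with 20E, on TMM library sizes as in all brain and ovary values of these tests. That is 34.7 ± 4.45 against 8.21 ± 1.32 CPM (SD, n = 3) and a log2 fold change of 2.08 (SE 0.18, edgeR adjusted p = 0.0011). HSALG008410.2 was at 46.5, 46.9 and 36.6 CPM with EtOH and at 91.3, 168 and 175 CPM with 20E. Its means were 43.3 ± 5.85 and 144.8 ± 46.5 CPM (SD, n = 3), with a log2 fold change of 1.74 (SE 0.24, edgeR adjusted p = 0.00821). The groups did not overlap for either gene, and both calls held in each of the 16 settings run. The third, HSALG011538.1, rose from 49.3 ± 5.71 to 114 ± 41.1 CPM (SD, n = 3; edgeR adjusted p = 0.0347), a call made in 6 of the 16 settings. The groups did not overlap for 14 members, or 15.4%, against 16.8% of all genes, and 13, or 14.3%, had an unadjusted p under 0.05, against 11.6%. HSALG011538.1 lost its call without brain libraries EtOH 1, EtOH 2, EtOH 3, 20E 2, 20E 3, JHA 2 or JHA 3.

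For JHA against 20E in brain, 3 of 91 members were lower with JHA, or 3.30%, where 2.19% of genes were called and 1.52% were called lower. The groups did not overlap for 16 members, or 17.6%, against 18.7% of all genes, and 25, or 27.5%, had an unadjusted p under 0.05, against 12.2%. HSALG012648.2 was at 10.1, 10.3 and 8.49 CPM with JHA, below all 20E libraries, with a log2 fold change of -1.85 (SE 0.18, edgeR adjusted p = 0.00174). HSALG008410.2 was at 43.4, 53.9 and 53.2 CPM with JHA, with a log2 fold change of -1.53 (edgeR adjusted p = 0.0129), and lost the call without 20E 2, 20E 3 or JHA 3. HSALG011449.2, a gene of low level at 0.680, 0.924 and 0.825 CPM with JHA and 2.55, 3.55 and 8.30 CPM with 20E, had a log2 fold change of -2.56 (edgeR adjusted p = 0.0399). It lost the call without EtOH 1, EtOH 2, 20E 2, 20E 3 or any of the 3 JHA libraries. Without 20E 1, the number of members called was 8 for 20E against EtOH and 9 for JHA against 20E, or 8.79 and 9.89%, against 3.39 and 3.88% of all genes. Without EtOH 3 and JHA 1 together it was 2 and 1, or 2.22 and 1.11%, against 3.19 and 3.37%, so whether the members' share lay above that of all genes depended on these libraries.

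For JHA against EtOH in brain edgeR called 0 of 91 members, where 0% of genes were called. At an unadjusted p under 0.05 it found 4 members, or 4.40%, against 3.22% of all genes, and DESeq2 called 0, against 0.239% of all genes. The groups did not overlap for 12 members, or 13.2%, against 6.71%. HSALG008148.1 was at 25.3, 7.57 and 12.0 CPM with EtOH and at 263, 25.7 and 102.1 CPM with JHA. On these TMM library sizes the groups were separated by a narrow gap, and the log2 fold change was 3.12 (SE 0.78, edgeR adjusted p = 0.866). On column sums EtOH 1 was at 25.5 CPM and JHA 2 at 25.3 CPM, so the groups overlapped. This gene had the smallest p for JHA against EtOH in fat body and in ovary as well.

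In ovary, edgeR called 0 of the 82 members tested for 20E against EtOH, for JHA against EtOH and for JHA against 20E, where 0% of 11418 genes were called in each. At an unadjusted p under 0.05 it found 4, 5 and 11 members, or 4.88, 6.10 and 13.4%, against 2.4, 3.51 and 4.21% of all genes, and DESeq2 called 1, 1 and 4, or 1.02, 1.01 and 4.49%, against 0.222, 0.043 and 0.476% of all genes. The groups did not overlap for 14, 10 and 5 members, or 17.1, 12.2 and 6.10%, against 9.33, 15.1 and 6.41% of all genes. HSALG004093.1 was at 4.84, 3.23 and 8.63 CPM with EtOH and at 0.530, 0.194 and 0.845 CPM with 20E. All 20E libraries lay below all EtOH libraries, at a log2 fold change of -3.41 (SE 0.72, edgeR adjusted p = 0.625). HSALG008148.1 was at 0.554, 0.394 and 0.565 CPM with EtOH and at 8.75, 0.993 and 18.7 CPM with JHA, a log2 fold change of 4.20 (SE 1.07, edgeR adjusted p = 0.825). With ovary libraries JHA 1 and 20E 3 left out, 6 members, or 7.32%, were called for 20E against EtOH, against 3.24% of all genes. Of these 1 was higher and 5 were lower, among them HSALG004093.1 at an adjusted p of 0.0186.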

How the data were processed

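The authors deposited raw read counts, as whole numbers, for each gene. Trimmomatic, HTSeq and STAR 2.5.3a are named in the submitters' processing notes. For the build, the annotation and the strand setting, nothing is given in the sources used here, so reads of overlapping or antisense genes may be mixed. The 5 summary lines of the table were dropped. In fat body they took 45.7 to 49.1% of the reads, and in the other tissues 42.7 to 63.3%. Levels are CPM on column sums and deviations use a pseudocount of 1.

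Counts were tested per tissue over 9 libraries with edgeR 4.0.16 in R 4.3.3 (TMM, filterByExpr, robust glmQLFit and glmQLFTest), without a replicate block, and p-values were adjusted over all tested genes. DESeq2 1.42.0, other scaling, filters, libraries and rule settings were alternatives. Ranking and clustering used Python 3.11.15 with pandas 2.3.3, numpy 2.4.6 and scipy 1.17.1. The scripts were tested on simulated data. Replicates of a group are 3 individuals per the series' design, and no replicate pair agreed within sampling noise (chi-square per degree of freedom of at least 7.94).

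The members, lists and tests were chosen with earlier results of these data known. Genes named are ranks 1 to 4 and 99 to 102, the 2 of highest mean, the 2 most typical of each of the 4 largest blocks, the 2 widest in brain and in ovary, the 2 with the largest and the 2 with the smallest ratio of fat body to other tissues, and per comparison up to 2 in each direction with the smallest adjusted p, or the smallest p where none passed. Others were named after their values were seen. Same-numbered libraries of different treatments had correlated deviations (above 0.1) in 2 of 9 pairs in fat body, 2 of 9 in brain and 4 of 9 in ovary, so the numbers were not taken to pair the treatments. Leaving out libraries that stood apart, and the differences between tissues, were added after seeing the data.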

Additional observations from a re-analysis of the deposited data

Results flagged for a closer look

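In an edgeR fit of all 27 libraries, added after the data were seen, the effect of each hormone was compared between tissues over 13367 genes. HSALG012648.2 had a log2 fold change with 20E of 0.33 in ovary and 4.56 in fat body, a difference of -4.23. HSALG004803.1 had a log2 fold change with JHA of 1.04 in ovary and -3.95 in fat body, a difference of 4.99. Its fat body EtOH libraries were at 60.9, 0.848 and 50.9 CPM, so EtOH 2 overlapped with the JHA libraries. The edgeR adjusted p of the difference was 0.0497 for HSALG012648.2 and 0.0398 for HSALG004803.1. Between ovary and fat body each was the 1 of 100 members called for its hormone, where 0.598% of genes were called for 20E and 1.44% for JHA. Both differences are given as a description, since the fat body spread that chose these genes enters the fit. The fit also gave each gene 1 dispersion for all tissues, while the members' median biological coefficient of variation was 0.687 in fat body and 0.438 in ovary. Neither gene passed in the edgeR fit of fat body alone, where DESeq2 called both. Between brain and fat body the fit called 0 of 100 members for 20E and 0 for JHA, where 0.396 and 0.703% of genes were called. At an unadjusted p under 0.05 it found 6 and 11 members. Between brain and ovary, whose values the ranking did not use, edgeR called 0 of 100 for each hormone. Of all genes 0.0224% were called there for 20E and 0% for JHA, and 2 and 3 members had an unadjusted p under 0.05. The shares of all genes at an unadjusted p under 0.05 were not computed for these differences, so nothing is read from those counts.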

How the results depend on the processing

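Of the 100 genes, 62 were again among the first 100 when ranked by the median of the 3 SDs, and 51 to 87 when a fat body library was left out, with 51 without JHA 1, 57 without 20E 3 and 59 without EtOH 2. By the median of the 3 SDs, the members' median spread was 0.367 in brain and 0.536 in ovary, against 0.209 and 0.173 for all genes. Leaving out a library gave 0.122 to 0.227 in brain and 0.151 to 0.239 in ovary. The median correlation with brain was 0.378 without EtOH 3 and JHA 1, and 0.219 to 0.374 with a number left out. With ovary it was 0.296 with TMM library sizes, 0.30 by rank, 0.274 without JHA 1 and 20E 3, and 0.336 to 0.428 with a number left out. The largest block held 46 members at a cut of 0.7 and 29 to 40 without a library. Pairs above 0.7 made up 12.3% by rank and 14.2 to 18.5% without a library. DESeq2 called 2, 7 and 4 members in fat body (20E against EtOH, JHA against EtOH, JHA against 20E), 6 in brain for 20E against EtOH and 7 for JHA against 20E, and 1, 1 and 4 in ovary. In brain these were 6.67 and 7.22% of members, against 4.03 and 3.95% of all genes. In fat body they were 2.06, 7.22 and 4.12%, against 4.52, 5.75 and 4.98%, and in ovary 1.02, 1.01 and 4.49%, against 0.222, 0.043 and 0.476%. Without the libraries that stood apart, 1 member was called in brain for JHA against 20E (1.11% against 3.37% of all genes) and 6 in ovary for 20E against EtOH (7.32 against 3.24%). Leaving out a library gave 2 to 8 calls in brain for 20E against EtOH, or 2.2 to 8.79%, where 0.406 to 3.39% of all genes were called. For JHA against 20E it gave 1 to 9, or 1.1 to 9.89%, where 0.589 to 3.88% were called. It gave 0 to 0 for the fat body and ovary comparisons and for JHA against EtOH in brain. Of all genes, 0.00991 to 1.46% were called there in fat body and at most 0.0258% in the others. With the replicate number as a block, edgeR called 1 member in fat body for JHA against EtOH (HSALG008148.1, adjusted p = 0.0418). That is 1% of members, against 0.811% of all genes, and the numbers were not shown to pair the treatments. The causes of these shifts were not tested. Of the values recomputed, 41 moved by more than the bound set for them and 179 did not. For the medians of SDs that bound was wide, the SD over the 3 treatments. With 3 libraries per group, an SD is imprecise, and the list depends on single libraries.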
